A study of Danio rerio with 5 samples.

Results

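The 10 transcription factor genes twist1a, twist1b, twist3, prrx1a, prrx1b, barx1, dlx2a, osr1, foxd3 and sox10 were followed in sorted cells of the zebrafish eye. They were listed by symbol as regulators of the neural crest and of periocular mesenchyme, and all 10 were present, each as 1 feature, among the 15413 symbols of the 5 deposited matrices. foxc1a and foxc1b, 2 further genes, served as the partners with which the 10 were compared cell by cell. Cells came from embryos of the line Tg[foxc1b:GFP] (genotype label AB). They were raised in phenylthiourea medium to keep them transparent and taken at 48, 72, 96, 120 and 144 hours post fertilization (hpf). Eyes of pooled embryos were dissected and dissociated, GFP+ cells were sorted, and 2 droplet 3′ libraries (A and B) were made per time point. Every library carried the same transgene, with no mutant, treated or unsorted group. The sort acted on GFP driven by foxc1b regulatory sequence and not on foxc1b RNA, which had a UMI (unique molecular identifier, a count of 1 captured RNA molecule) in 1260 of 12234 cells (10.3%).

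The neural crest is a migratory embryonic population that gives rise to pigment cells, peripheral glia and much of the skeleton and connective tissue of the head. Crest-derived mesenchyme gathers around the optic cup as periocular mesenchyme and enters the anterior segment, where it forms the corneal stroma and endothelium and, in fish, the annular ligament that anchors the iris to the cornea. twist1a, twist1b and twist3 encode basic helix-loop-helix factors of early mesenchyme, and prrx1a and prrx1b encode paired-related homeodomain factors of head and limb mesenchyme. barx1 and dlx2a encode homeodomain factors best known from the mesenchyme of the pharyngeal arches, and osr1 encodes a zinc finger factor of intermediate mesoderm and, in mouse and chick, of irregular connective tissue. foxd3, a forkhead factor, and sox10, a SoxE factor, mark crest cells themselves and persist in crest-derived glia and, for sox10, in pigment cell precursors. foxc1a and foxc1b are the zebrafish orthologs of human FOXC1, mutations of which cause anterior segment dysgenesis.

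Libraries held 788648 to 15621511 UMIs, with a median of 760 to 3709 per cell. According to the table of cells, 2 libraries (A of 48 hpf and of 72 hpf) used V2 chemistry. The same table gives 7 codes for the 10 libraries, and neither chemistry nor code can be fully told apart from time. The study describes independent biological replicates at each time point, which the GEO labels do not list as separate samples, so p-values measure the spread between these libraries. The library 144 hpf B stood apart, with 102 cells, of which 95 were epithelial and none mesenchymal, and 61 of its barcodes were also present in 48 hpf B (other pairs shared at most 19). It enters the sums over all sorted cells and the epithelial values but no mesenchymal or annular ligament value, and called trends in all sorted cells are given with and without both libraries. Clusters were built within each time point without the 10 genes, foxc1a and foxc1b, and were named from marker lists. Of 12234 cells, 1692 (13.8%) lay in mesenchymal clusters, named from corneal endothelium, corneal stroma or cartilage markers, and 1322 (10.8%) in annular ligament clusters. A further 2596 were epithelial, 5043 (41.2%) retinal or neural and 192 mural, although all samples are labelled as anterior segment mesenchyme. The annular ligament name was weak at 72 hpf. There scinla, the defining marker, stood at 2081 CPM (UMIs per 1000000 UMIs of the class, 72 hpf A) and 6420 CPM (72 hpf B), against 32910 to 55660 CPM from 96 hpf on, and hgd stood at 69.7 CPM in 72 hpf A, below the 130.9 CPM of mesenchymal cells of that library.

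All 10 genes were detected, and edgeR called 9 of them higher in mesenchymal cells than in the rest of the sorted cells, compared within libraries. Beside them, 17.4% of 9120 genes were called higher and 46.4% in either direction. dlx2a was higher in 8 of 9 libraries and sox10 in 7 of 9, and the sox10 call was lost in 5 of 9 leave-one-out fits. The UMIs of 5 genes were concentrated in mesenchymal and annular ligament cells together. Of the 3579 twist1a UMIs, 34.3% came from mesenchymal and 56.4% from annular ligament cells, and for prrx1a (2363 UMIs) the shares were 35.2% and 58.2%. twist3 (1522 UMIs) had 37.6% in mesenchymal and 55.0% in annular ligament cells, prrx1b (1758 UMIs) 45.3% and 47.7%, and twist1b (814 UMIs) 61.5% and 30.2%. The arch and connective tissue factors leaned to mesenchymal cells, with 68.9% of 1404 barx1 UMIs, 51.7% of 960 dlx2a UMIs and 65.8% of 1560 osr1 UMIs there, and no more than 12.9% of any of the 3 in annular ligament cells. foxd3 was rare, with 307 UMIs in 64 cells (0.523% of cells), 31.9% of them in mesenchymal and 46.9% in annular ligament cells. sox10 (540 UMIs in 267 cells) was spread most widely, with 24.1% of its UMIs in annular ligament, 30.6% in retinal or neural and 162 UMIs in mesenchymal cells.

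Cell by cell, at an equal depth of 1000 UMIs, twist1a had a UMI in 22.5% of 1351 mesenchymal cells (95% exact binomial interval 20.3 to 24.8%), in 27.3% of 1128 annular ligament cells and in 39.0% of 141 mural cells. The same share was 0.147% of 2041 epithelial cells and 0.229% of 3935 retinal or neural cells. Whether these few UMIs were background was not tested. prrx1a was likewise found mainly in these 3 classes, at 14.7% of mesenchymal, 18.6% of annular ligament and 14.2% of mural cells, against 0.0980% of epithelial and 0.152% of retinal or neural cells. For barx1 the shares were 11.3% of mesenchymal, 1.06% of annular ligament and 1.32% of epithelial cells, so that over all time points annular ligament cells were not above epithelial cells. osr1 had a UMI in 13.9% of mesenchymal, 0.887% of annular ligament and 7.09% of mural cells, and dlx2a in 8.59% of mesenchymal and 1.60% of annular ligament cells. Neither barx1, dlx2a, foxd3 nor sox10 had a UMI in any mural cell (0 of 141, which allows a share of up to 2.13% at 3 counts, with an exact 95% limit of 2.58%). The cells were thinned because median depths differed (1902 UMIs in mesenchymal, 3141 in annular ligament, 1525 in mural and 3782 in epithelial cells), and 341 mesenchymal cells were too shallow to enter. Unthinned, the twist1a shares were 34.3% of mesenchymal, 56.3% of annular ligament and 0.693% of epithelial cells. Intervals and limits cover counting error only.

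**Figure D1:**
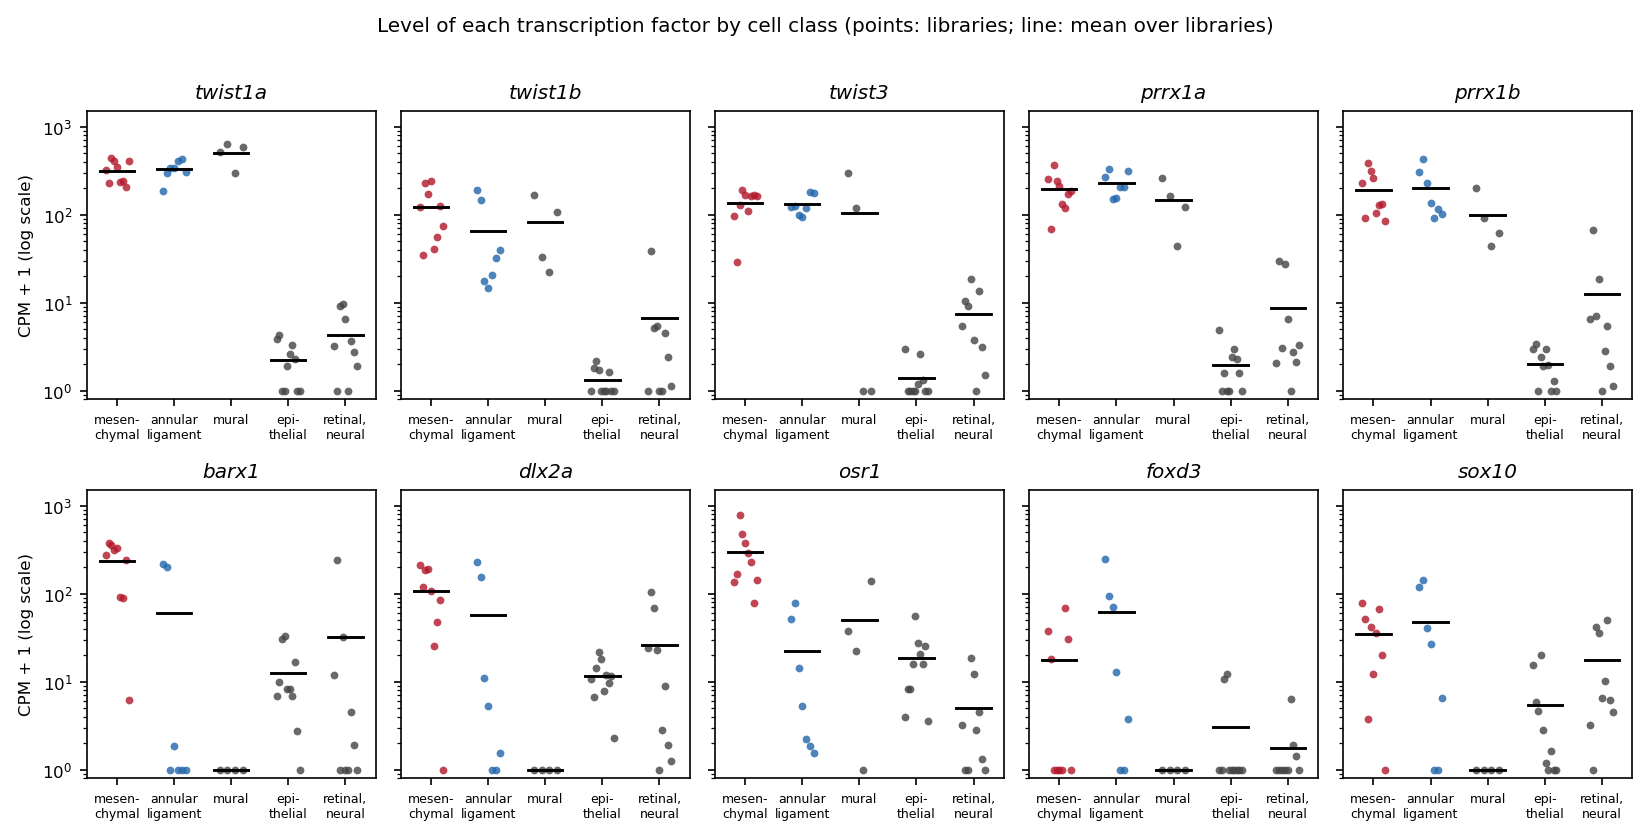
Level of the 10 transcription factors in CPM + 1 on a log axis (y), by cell class (x), with 1 point per library that holds at least 10 cells of the class and a line at the mean over libraries. The twist and prrx genes are high in mesenchymal, annular ligament and mural cells and low in epithelial and retinal or neural cells, barx1, dlx2a, foxd3 and sox10 are at 0 in all 4 mural libraries, and osr1 lies between 76.7 and 787.9 CPM in mesenchymal cells against 0.548 to 76.8 CPM in annular ligament cells.

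Per library, the twist and prrx genes separated mesenchymal cells from all other cells pooled, but not from each class among them. Against annular ligament cells alone the ranges of each of these genes overlapped. In mural cells twist1a averaged 572.9 CPM at 96 hpf and 441.7 CPM at 120 hpf. In the 9 libraries with at least 10 mesenchymal cells, twist1a ran from 208 to 437 CPM (median 325) in mesenchymal cells, against 8.75 to 76.5 CPM (median 41.0) in all other cells of the same libraries. For twist1b the ranges were 34.0 to 241 CPM (median 122) in mesenchymal cells and 0 to 21.8 CPM in the others. These ranges did not overlap, nor did those of twist3 (28.4 to 189 against 2.50 to 23.6 CPM), prrx1a (68.1 to 370.3 against 6.25 to 48.4 CPM) and prrx1b (83.8 to 389.8 against 7.92 to 62.3 CPM). Among the other factors, osr1 ran from 76.7 to 787.9 CPM (median 227) in mesenchymal cells, against 2.80 to 36.6 CPM (median 9.10) in other cells, again without overlap. The share of all genes without such an overlap was not counted. The ranges of barx1 (5.24 to 374 against 0.439 to 52.2 CPM) and dlx2a (0 to 212 against 2.403 to 42.6 CPM) overlapped. Mesenchymal cells of 144 hpf A held 1 barx1 UMI and no dlx2a UMI, and those of 96 hpf B also had dlx2a (24.2 CPM) below the highest level of other cells. foxd3 was higher in mesenchymal cells in only 4 of 9 libraries and sox10 in 7 of 9.

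In the edgeR quasi-likelihood test with library as a block, 9 of the 10 genes were higher in mesenchymal cells (Benjamini-Hochberg adjusted p under 0.05 over 9120 genes), beside 17.4% of all genes tested higher, 28.9% lower and 46.4% called in either direction. The median log2 difference was 2.87 over the 10 genes and −0.20 over all genes. osr1 (4.21 ± 0.31, log2 ± SE, adjusted p = 7.89e-08), barx1 (4.11 ± 0.40, adjusted p = 1.04e-06) and twist1b (3.86 ± 0.43, adjusted p = 4.43e-06) had the largest differences of the 10. twist3 (2.91 ± 0.24), twist1a (2.89 ± 0.37), prrx1b (2.86 ± 0.31), dlx2a (2.69 ± 0.40) and prrx1a (2.63 ± 0.33) followed, and leaving out any single library kept all 8 of these calls. sox10 was also higher (1.59 ± 0.54, adjusted p = 0.0248), but the call was lost without 48 hpf A (adjusted p = 0.0649), 48 hpf B (0.0559), 96 hpf B (0.0586), 120 hpf A (0.0689) or 120 hpf B (0.0572). For foxd3 the difference was 2.05 ± 1.39 (adjusted p = 0.246). It passed the test once 157 called doublets were left out and the remaining cells were clustered and named again (3.18, adjusted p = 0.0286). Which of these 2 changes moved foxd3 was not tested. For comparison, foxc1a (3.90 ± 0.38) and foxc1b (3.82 ± 0.38) were higher in the same fit. The 10 genes were left out of the clustering, but genes whose levels follow theirs were not, so this comparison is not independent of how the classes were made.

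Of 48 related crest, periocular and arch factors matched in the files, 40 could be tested in this comparison, and 27 were higher and 3 lower in mesenchymal cells. The 5 with the largest differences were meox1 (6.46 ± 0.50), a homeodomain factor of somites and connective tissue, foxf1 (4.86 ± 0.61), a forkhead factor of visceral and head mesenchyme, osr2 (4.78 ± 0.43), a paralog of osr1, hand2 (4.61 ± 0.72), a ventral arch factor, and alx1 (4.32 ± 0.45), a periocular mesenchyme factor, all 5 higher (log2 ± SE, edgeR adjusted p = 0.000162 or lower). The list's median log2 difference was 1.85.

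Between the mesenchymal and annular ligament classes, osr1, barx1, twist1b and dlx2a were higher in mesenchymal cells. The edgeR test over the 7 libraries with at least 10 cells of each class called 4 of the 10 genes, all higher in mesenchymal cells, beside 18.8% of 5509 genes tested higher, 19.8% lower and 38.6% called in either direction, so that the number of calls itself is near the background. osr1 ran from 76.7 to 787.9 CPM (median 288) in mesenchymal cells, against 0.548 to 76.8 CPM (median 4.27) in annular ligament cells, and was higher in mesenchymal cells in 7 of 7 libraries by 4.84 ± 0.43 on the log2 scale (adjusted p = 1.72e-05). barx1 ran from 5.24 to 354 CPM (median 242) in mesenchymal cells, against 0 to 215 CPM (median 0) in annular ligament cells, also higher in 7 of 7 (3.58 ± 0.89, adjusted p = 0.00765). The osr1 ranges met at their ends only, whereas those of barx1 overlapped through the annular ligament cells of 72 hpf. twist1b, with medians of 125 CPM in mesenchymal and 30.9 CPM in annular ligament cells, was higher in 7 of 7 libraries (1.18 ± 0.35, adjusted p = 0.0184), and lost the call without 96 hpf B (adjusted p = 0.0508) or 120 hpf B (0.0622). dlx2a was higher in 5 of 7 libraries (2.01 ± 0.69, adjusted p = 0.0369), a call lost on leaving out 96 hpf A (adjusted p = 0.0916), 96 hpf B (0.0852), 120 hpf A (0.0796), 120 hpf B (0.0857) or 144 hpf A (0.0633) and with doublets left out (0.0585). At 72 hpf A it was the annular ligament cells that had more dlx2a, 184 CPM in mesenchymal and 225 CPM in annular ligament cells. With finer clusters (resolution 2) only 4 libraries could enter, and twist1b (0.89, adjusted p = 0.357), barx1 (1.52, adjusted p = 0.389) and dlx2a (0.60, adjusted p = 0.684) no longer passed.

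The other twist and prrx genes overlapped between the classes and were not called. twist1a had a median of 348 CPM in mesenchymal cells and 336 CPM in annular ligament cells and was higher in mesenchymal cells in 4 of 7 libraries. prrx1a had medians of 183 CPM in mesenchymal and 205 CPM in annular ligament cells (higher in mesenchymal cells in 2 of 7), and prrx1b had 130.7 and 134 CPM in the same order (4 of 7). The fitted differences, mesenchymal over annular ligament, were −0.20 ± 0.30 for twist1a (adjusted p = 0.636), 0.10 ± 0.23 for twist3 (0.768), −0.37 ± 0.28 for prrx1a (0.322) and −0.12 ± 0.21 for prrx1b (0.699), where edgeR found no call. The partners foxc1a (1.27 ± 0.19, adjusted p = 0.000377) and foxc1b (2.13 ± 0.22, adjusted p = 4.53e-05) were higher in mesenchymal cells, and foxc1b did not overlap between the classes (152 to 545 CPM in mesenchymal against 31.3 to 143 CPM in annular ligament cells). Of 36 related factors tested, 20 were higher and 3 lower in mesenchymal cells. The 5 largest differences were meox1 (4.97 ± 0.67), tfap2b (−4.31 ± 0.69), a crest factor that was thus higher in annular ligament cells, sox9a (3.27 ± 0.30), the cartilage regulator, tbx18 (3.15 ± 0.67), a T-box factor of mesenchyme, and hand2 (3.11 ± 0.95).

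Over time, in all sorted cells of a library together, dlx2a alone passed the test for a linear trend, and it fell. Its level was 59.7 and 21.7 CPM at 48 hpf (libraries A and B), 57.3 and 64.4 CPM at 72 hpf, 19.8 and 6.72 CPM at 96 hpf, 11.7 and 7.87 CPM at 120 hpf, and 2.81 and 1.27 CPM at 144 hpf. All 6 libraries from 96 hpf on lay below all 4 earlier ones. edgeR gave a slope of −0.96 ± 0.18 on the log2 scale per 24 h (adjusted p = 0.0377 over 8896 genes), 1 of 10 genes lower beside 0.371% of all genes lower, 0.674% higher and 1.05% called in either direction. This sum cannot tell fewer dlx2a cells from less dlx2a RNA per cell. Mesenchymal cells made up 289 of 842 cells in 48 hpf A and 61 of 916 in 48 hpf B. At 144 hpf they were 120 of 2409 in library A and 0 of 102 in library B. The dlx2a call was lost on leaving out 48 hpf A (adjusted p = 0.105), 72 hpf A (0.0815), 72 hpf B (0.0742), 96 hpf A (0.0564), 120 hpf A (0.0735), 120 hpf B (0.0612), 144 hpf A (0.0850) or 144 hpf B (0.0505), while the slope stayed between −1.10 and −0.92. With 48 hpf B and 144 hpf B both left out, or with the cells of shared barcodes left out, 1 of the 10 genes, dlx2a, was still called (−1.08, adjusted p = 0.0377, and −0.95, adjusted p = 0.0363). The call was also lost with the code of the libraries as a block (slope −0.68, adjusted p = 0.637), without the V2 libraries (−0.84, 0.255) and with plain totals in place of TMM scaling (−1.11, 0.0814). Within the pairs of libraries that share a code, dlx2a stood at 19.8 CPM in 96 hpf A against 64.4 CPM in 72 hpf B and at 11.7 CPM in 120 hpf A against 6.72 CPM in 96 hpf B. In the last pair it stood at 2.81 CPM in 144 hpf A against 7.87 CPM in 120 hpf B. It was thus lower at the later time in 2 of 3 pairs.

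barx1 fell short of that threshold. It stood at 72.9 and 44.6 CPM at 48 hpf, 71.6 and 98.3 CPM at 72 hpf, 30.8 and 9.54 CPM at 96 hpf, 11.5 and 20.04 CPM at 120 hpf, and 0.505 and 0 CPM at 144 hpf, with a slope of −1.15 ± 0.28 (edgeR adjusted p = 0.0722, and −1.23, adjusted p = 0.0891, without 48 hpf B and 144 hpf B). The 4 libraries of 48 and 72 hpf were all above the 6 later ones here too. osr1 had its highest levels at 72 hpf, 90.5 and 103 CPM, and stood at 8.96 CPM or lower in 120 hpf B and both 144 hpf libraries (slope −0.61 ± 0.25, adjusted p = 0.252, and −0.72, adjusted p = 0.173, without 48 hpf B and 144 hpf B). DESeq2 called both of these, with foxd3 and dlx2a, as lower over time, beside 257 of 8896 genes lower and 8.06% called in either direction. At an unadjusted p under 0.05 edgeR had 1380 of 8896 genes in either direction. Among them were twist1b, barx1, dlx2a, osr1, foxd3 and sox10, all with negative slopes. Of 36 related factors tested, none was higher and 2 were lower, dlx6a (−0.98 ± 0.20), an arch homeodomain factor next to dlx5a in the genome, and six1a (−0.89 ± 0.18), a placode and head mesoderm factor. Without 48 hpf B and 144 hpf B, 2 of 37 were lower, six1a (−0.93, adjusted p = 0.0289) and dlx4b (−0.83, adjusted p = 0.0440), while dlx6a missed the threshold (−1.04, adjusted p = 0.0643).

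Inside the mesenchymal class no member passed the test for a linear trend (edgeR, 9 libraries, 4185 genes, of which 7.62% were called higher, 8.75% lower and 16.4% in either direction). At an unadjusted p under 0.05, twist3 had a positive slope (0.40 ± 0.15 per 24 h, adjusted p = 0.0838) and dlx2a a negative one (−0.62 ± 0.24, adjusted p = 0.0896), and DESeq2 called these 2. twist3 stood at 96.8 and 28.4 CPM at 48 hpf, 128 and 189 CPM at 72 hpf, 168 and 110.3 CPM at 96 hpf, 161 and 165 CPM at 120 hpf, and 162 CPM at 144 hpf, so both 48 hpf libraries were the lowest. dlx2a in mesenchymal cells was at 212 and 119 CPM at 48 hpf, 184 and 191 CPM at 72 hpf, 107 and 24.2 CPM at 96 hpf, 46.6 and 83.4 CPM at 120 hpf, and 0 CPM (of 120 cells) at 144 hpf. Every 48 and 72 hpf library of dlx2a was above every later one. barx1 held 277 and 374 CPM at 48 hpf, 354 and 315 CPM at 72 hpf, 331 and 91.5 CPM at 96 hpf, 89.0 and 242 CPM at 120 hpf, and 5.24 CPM at 144 hpf (slope −0.47 ± 0.25, adjusted p = 0.206). Without 120 hpf B, dlx2a (−0.91, adjusted p = 0.0324) and barx1 (−0.84, adjusted p = 0.0423) passed the test, beside 15.45% of 4679 genes in either direction. The make-up of the class differed between times. At 144 hpf it was a single cluster of library A, named from corneal endothelium markers but with col2a1a, col9a2 and cnmd of the cartilage list among its leading genes. At 48 hpf it held a cartilage and an endothelium cluster, and from 72 to 120 hpf cartilage and stroma clusters. At 72 hpf these clusters followed the libraries. All 182 mesenchymal cells of library A were in the stroma cluster, and 189 of the 195 of library B in the cartilage cluster. The table of cells also gives these libraries different chemistry, and the part of either in the 72 hpf values was not tested.

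osr1 in mesenchymal cells had its highest values at 72 hpf, with 134 and 164 CPM at 48 hpf, 787.9 and 470.3 CPM at 72 hpf, 370.5 and 288 CPM at 96 hpf, 227 and 76.7 CPM at 120 hpf, and 142 CPM at 144 hpf. Both 72 hpf libraries exceeded all 7 others, a pattern that a linear term cannot show, and with time as a factor the adjusted p was 0.109. With time as a factor edgeR called dlx2a (adjusted p = 0.0442) and foxd3 (0.00398), beside 10.18% of 5736 genes. foxd3 in this class was at 36.5 and 17.0 CPM at 48 hpf, at 0 in all 4 libraries of 72 and 96 hpf, at 67.8 and 29.4 CPM at 120 hpf, and at 0 at 144 hpf, values that rest on 98 UMIs in 25 cells. twist1a, by comparison, stayed between 208 and 437 CPM at all 5 time points, with 325 and 227 CPM at 48 hpf and 409 CPM at 144 hpf. Of 33 related factors tested, pax3a, a crest and muscle precursor factor, was higher over time (0.72 ± 0.18, adjusted p = 0.0168) and none was lower.

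**Figure D2:**
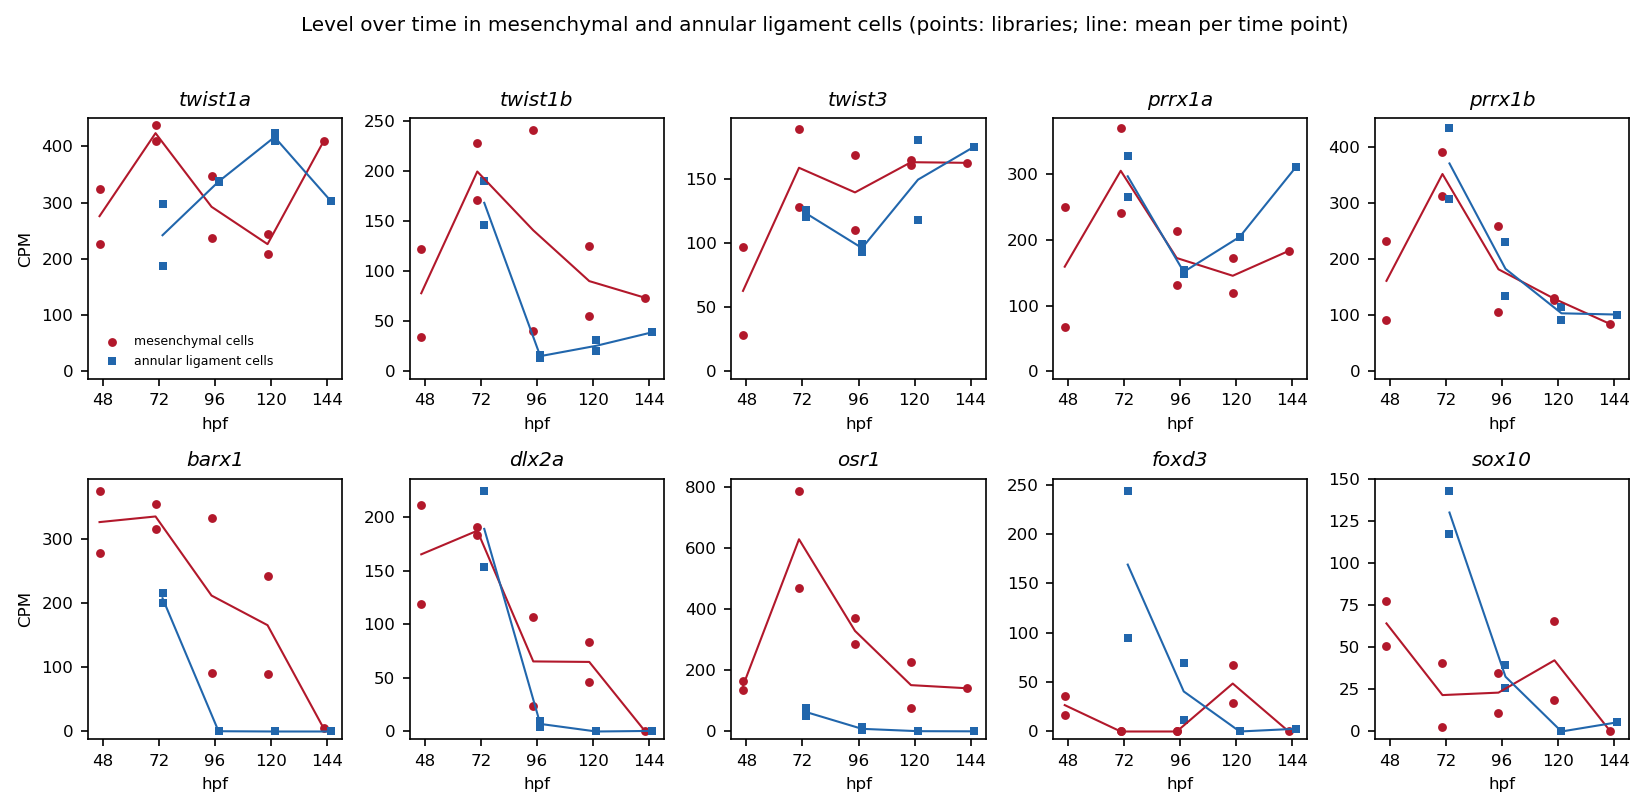
Level of each factor in CPM (y, linear from 0) against hpf (x) in mesenchymal cells (red circles) and annular ligament cells (blue squares), with 1 point per library and a line through the means of each time point. barx1, dlx2a and osr1 drop to near 0 in annular ligament cells after 72 hpf while mesenchymal cells keep barx1 and dlx2a until 120 hpf, and twist1a in annular ligament cells lies between 187 and 424 CPM throughout. The annular ligament name is weak at 72 hpf.

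Most calls over time among the 10 genes came from the annular ligament class. After 72 hpf its cells had next to no barx1, dlx2a or osr1 RNA, while the twist and prrx genes stayed detected in every library. The name of the class was weak at 72 hpf. Its cluster there had 5 of 7 annular ligament markers up, beside 4 corneal endothelium markers. The values at 72 hpf and later may thus not come from 1 cell type. barx1 stood at 215 and 199 CPM at 72 hpf, at 0 and 0.854 CPM at 96 hpf, at 0 in both 120 hpf libraries and at 0 in 144 hpf A. That was 1 UMI in 1174 cells from 96 hpf on, against 125 UMIs in 145 cells at 72 hpf, a ratio of 0.000915 in CPM (95% interval 2.30e-05 to 0.00519, counting error only). The 72 hpf barx1 UMIs lay in 8 cells of library A and 10 of library B, and 1 cell of A held 39 of the 68 UMIs there. dlx2a stood at 225 and 154 CPM at 72 hpf, 9.89 and 4.27 CPM at 96 hpf, 0 in both 120 hpf libraries and 0.548 CPM at 144 hpf, 9 UMIs late against 115 at 72 hpf. osr1 went the same way from a lower start, with 50.7 and 76.8 CPM at 72 hpf, 13.2 and 4.27 CPM at 96 hpf, 1.24 and 0.859 CPM at 120 hpf, and 0.548 CPM at 144 hpf. In all 3 genes both 72 hpf libraries lay above every later one, an order whose share among all genes was not counted.

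The crest factors followed. foxd3 was at 244 and 94.3 CPM at 72 hpf, 69.2 and 11.96 CPM at 96 hpf, 0 in both 120 hpf libraries and 2.74 CPM at 144 hpf, and sox10 at 117 and 143, 39.5 and 25.6, 0 and 0, and 5.48 CPM at the same times. These levels rested on few cells. foxd3 had a UMI in 8 (72 hpf A), 4 (72 hpf B), 3 (96 hpf A) and 7 cells (96 hpf B), and sox10 in 9, 7, 4 and 6. Of the 25 foxd3 cells and 31 sox10 cells of the class, 21 held both genes. twist1b and prrx1b had lower sums late without passing the trend test (adjusted p = 0.688 and 0.685). Over the pooled cells, twist1b stood at 27.3 CPM from 96 hpf on against 169 CPM at 72 hpf (ratio 0.161, interval 0.124 to 0.210), and prrx1b at 117 against 367 CPM (ratio 0.320, interval 0.274 to 0.374). twist1a had 187 and 297 CPM at 72 hpf, 336 and 338 CPM at 96 hpf, 409 and 424 CPM at 120 hpf, and 303 CPM at 144 hpf, so that only 72 hpf B came near the later libraries.

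An edgeR trend in annular ligament cells, a comparison added after the data were seen, called 5 of the 10 genes lower and 2 higher, beside 5.0% of 6341 genes lower, 7.27% higher and 12.3% called in either direction. The slopes per 24 h were −6.47 ± 0.41 for barx1 (adjusted p = 5.39e-05), −3.73 ± 0.41 for dlx2a (0.000553), −2.16 ± 0.32 for osr1 (0.00187), −2.01 ± 0.47 for foxd3 (0.0180) and −1.39 ± 0.41 for sox10 (0.0472). Fitted slopes of genes with libraries at 0 depend on the small count the fit adds and are no bounds. The foxd3 and sox10 calls rest largely on the same few cells and are not separate results. The sox10 call was lost on leaving out 72 hpf A (adjusted p = 0.0532), 72 hpf B (0.159), 96 hpf A (0.0691), 96 hpf B (0.0626), 120 hpf A (0.0643) or 120 hpf B (0.0683). Without either 72 hpf library barx1 and dlx2a fell under the count filter. Both thus entered the test through the libraries where they were high, and their calls are no separate support for the fall. Of 7 leave-one-out fits, barx1 and dlx2a had a value in 4 each and osr1 in 6. twist1a (0.74 ± 0.16, adjusted p = 0.0122) and twist3 (0.75 ± 0.17, adjusted p = 0.0138) were higher over time under TMM scaling, a call both lost without 72 hpf B (twist1a 0.0585, twist3 0.0566) or 144 hpf A (twist1a 0.0628, twist3 0.187). With plain totals in place of TMM the median slope of all genes was −0.54, against 0.01 under TMM. There twist1a (0.19, adjusted p = 0.346) and twist3 (0.19, adjusted p = 0.312) were not called and prrx1b was called lower (−0.70, adjusted p = 0.00978). Of 32 related factors tested, 9 were lower and none higher, led by hand2 (−5.26 ± 0.53), foxf1 (−3.47 ± 0.63), meox1 (−3.06 ± 0.67), six2a (−2.69 ± 0.43) and dlx6a (−2.65 ± 0.50).

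The contrast with mesenchymal cells was tested as a difference of slopes, annular ligament minus mesenchymal, also added after the data were seen. 4 of the 10 genes differed, all with the more negative slope in annular ligament cells, beside 1.22% of 5509 genes in that direction, 1.07% in the other and 2.29% in either. These were barx1 (−5.35 ± 0.41, edgeR adjusted p = 6.03e-05), dlx2a (−2.65 ± 0.47, 0.0116), osr1 (−1.44 ± 0.31, 0.0334) and foxd3 (−4.41 ± 0.96, 0.0357). barx1 kept its call without any single library. dlx2a lost it without 72 hpf A (0.0682), 120 hpf A (0.0542) or 120 hpf B (0.0517). osr1 lost it without 72 hpf B (0.156) or 120 hpf A (0.105). foxd3 lost it without 72 hpf A (0.175), 72 hpf B (0.106), 120 hpf A (0.120) or 120 hpf B (0.0569), and its fitted difference ran from −11.99 to −3.63 on leaving out a library. Mesenchymal cells of these libraries held no foxd3 UMI at 72 and 96 hpf, 67.8 and 29.4 CPM at 120 hpf and none at 144 hpf. Their foxd3 thus did not fall from 72 hpf. These trends turn on the 72 hpf annular ligament cells, whose scinla and hgd levels were low, and the part of that in the result was not tested. Markers of Schwann and oligodendrocyte glia, a list of 7 measured genes of which 1 was at 0 in annular ligament cells, summed to 558.6 to 4571 CPM there and to 41.9 to 424.9 CPM in mesenchymal cells. Such a sum does not show which gene carried it. Müller glia markers summed to 408.5 to 1842 CPM in annular ligament and 164.5 to 976.7 CPM in mesenchymal cells. For retinal progenitor markers the sums were 242.9 to 2367 and 272.5 to 2040 CPM. The part of such markers in the foxd3 and sox10 levels was not tested. Of 36 related factors tested, 6 had the more negative slope in annular ligament cells and none in mesenchymal cells, led by hand2 (−5.21 ± 0.65), dlx1a (−3.90 ± 0.59), meox1 (−3.41 ± 0.64), foxf1 (−3.20 ± 0.61) and dlx6a (−2.47 ± 0.59).

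Cells with a UMI of a mesenchymal factor also held foxc1a or foxc1b more often than other sorted cells. At 1000 UMIs a cell, 36.4% of twist1a cells had a foxc1a or foxc1b UMI, against 9.73% of cells without twist1a, a difference of 26.6 ± 14.9 percentage points (SD, n = 9 libraries, above 0 in 9 of 9). For osr1 the shares were 35.6% and 10.6%, a difference of 25.0 ± 6.74 points (9 of 9). The difference was 21.9 ± 11.4 points for twist1b (8 of 8 libraries), 19.4 ± 8.75 for prrx1a (9 of 9), 9.43 ± 8.03 for prrx1b (8 of 9) and 9.25 ± 7.73 for twist3 (7 of 8). These 6 of the 10 passed a two-sided exact sign-flip permutation test over libraries, with p adjusted over the 10 tests of 0.0130 for twist1a, osr1 and prrx1a, 0.0195 for twist1b, 0.0234 for prrx1b and 0.0391 for twist3. The twist3 call was lost without 72 hpf A, 72 hpf B, 96 hpf A or 120 hpf B (exact permutation test, adjusted p = 0.0781 each), 96 hpf B or 144 hpf A (0.0670 each) or 120 hpf A (0.0521). barx1 (9.51 ± 9.95 points, 7 of 8) missed the threshold with an adjusted p of 0.0558 in the exact permutation test, passing it without 96 hpf B (0.0312). With foxc1b alone as the partner, prrx1b (exact permutation test, adjusted p = 0.0716) and twist3 (0.0955) were not called. Neither dlx2a (2.85 ± 5.65 points, adjusted p = 0.226) nor sox10 (4.31 ± 22.6 points, adjusted p = 0.844) passed the exact permutation test. foxd3 went below 0 in all 5 libraries that could be scored, with 0% of foxd3 cells against 12.5% of other cells, where the smallest p that 5 libraries allow in the exact permutation test is 0.0625.

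Within the mesenchymal class the differences were small or negative. Among mesenchymal cells alone, 48.3% of twist1a cells and 41.2% of cells without it held foxc1a or foxc1b (7.05 ± 23.9 points, 6 of 9 libraries), and the differences were −1.18 points for osr1, −1.39 for twist1b and −2.04 for prrx1a. The twist1a mean was raised by 48 hpf B, where 5 of 5 twist1a cells held a partner (67.65 points). In the other libraries the twist1a difference ran from −11.01 (48 hpf A) to 12.95 points (120 hpf B). Within the class, prrx1b went with less foxc1a or foxc1b. The share was 26.5% of prrx1b cells against 44.7% of cells without it (−18.2 ± 13.6 points, below 0 in 9 of 9 libraries, exact permutation test, adjusted p = 0.0391). twist3 was below 0 in 7 of 7 libraries (22.2% against 44.0%, −21.8 ± 10.2 points, exact permutation test, adjusted p = 0.0781) and barx1 in 6 of 8 (26.0% against 41.5%, −15.5 ± 14.4 points, adjusted p = 0.104). foxd3 cells of the class held no foxc1a or foxc1b UMI after thinning in the 3 libraries scored, against 33.7% of the other cells. Among annular ligament cells none of the 8 genes that could be scored passed the test (exact permutation test, adjusted p = 0.732 or higher). The test could not have called twist1b, dlx2a, foxd3 or sox10, which had 2 to 4 libraries and a smallest possible p of 0.125 or more in the exact permutation test. The last 3 stood at 0% against 21.4 to 24.4% of the cells without them.

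**Figure D3:**
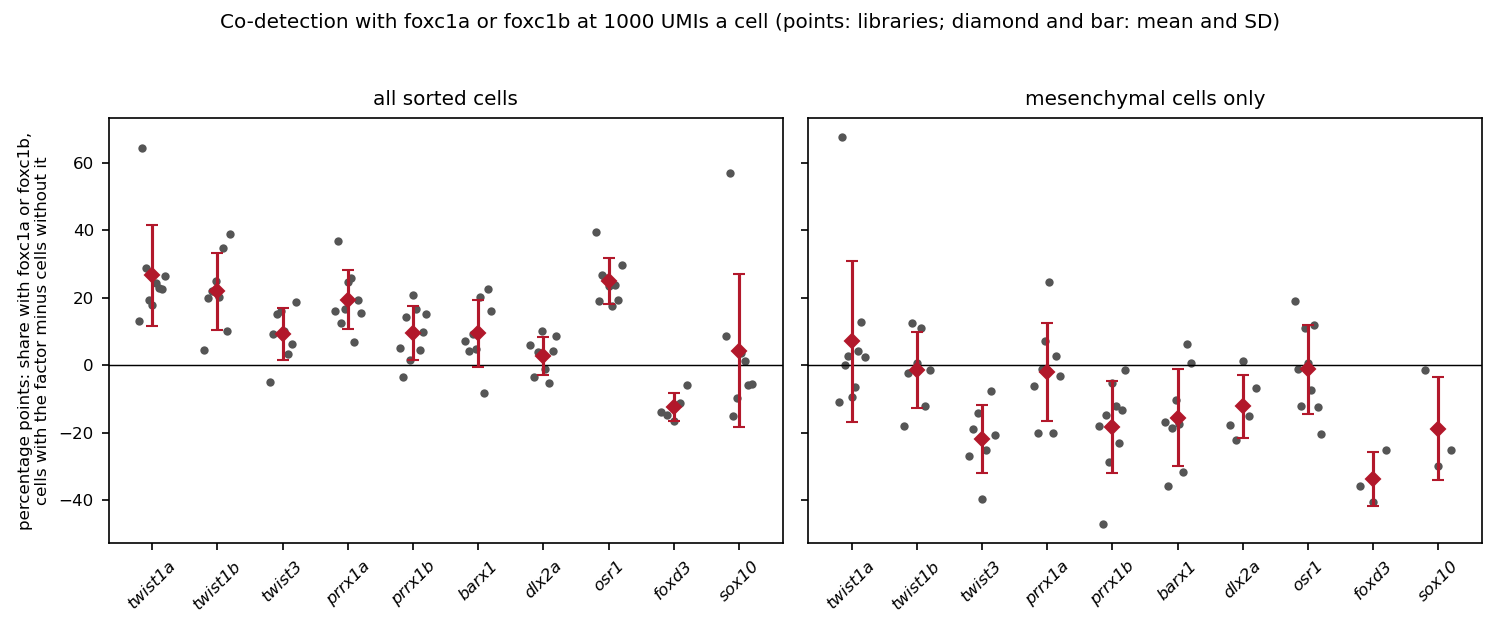
Difference, in percentage points (y), between the share of cells with a foxc1a or foxc1b UMI among cells with the factor and among cells without it, at 1000 UMIs a cell, for each factor (x), over all sorted cells (left) and mesenchymal cells only (right). Points are libraries with at least 5 cells of the factor, and the diamond and bar give their mean and SD. Over all sorted cells twist1a and osr1 sit 26.6 and 25.0 points above 0, and within mesenchymal cells prrx1b and twist3 sit 18.2 and 21.8 points below it.

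Mesenchymal clusters also differed among themselves. At each of 96 and 120 hpf the class held 1 cluster led by stroma markers, a larger one led by cartilage markers and a small one led by cartilage markers, which were picked out after their values were seen and are therefore given without a test. barx1 stood at 392 (96 hpf A), 155 (96 hpf B), 137 (120 hpf A) and 308 CPM (120 hpf B) in the stroma-led clusters, against 0, 11.3, 0 and 14.9 CPM in the larger cartilage-led clusters of the same libraries. dlx2a was at 126, 37.6, 72.0 and 109.6 CPM in stroma-led clusters, against 0, 11.3, 0 and 0 CPM in the larger cartilage-led ones, and osr1 at 438, 484, 314 and 94.6 CPM against 0, 45.3, 70.5 and 24.8 CPM. At 96 and 120 hpf all 3 factors were higher in the stroma-led cluster of every library without overlap, though 3 UMIs in the 16 cartilage-led cells of 96 hpf A would amount to 129 CPM. The share of all genes with this order was not counted. The order was not particular to barx1, dlx2a and osr1. twist3 had it too, without overlap, at 199, 183, 213 and 183 CPM in stroma-led clusters against 0, 22.6, 70.5 and 134 CPM. prrx1a and prrx1b were also higher in the stroma-led cluster of every library, but their ranges overlapped. foxc1a had the reverse order, with 266, 183, 81.8 and 48.6 CPM in stroma-led clusters against 1207, 1120, 1148 and 606 CPM in the larger cartilage-led ones, again without overlap. The small cartilage-led clusters did not share that order. In 96 hpf B (22 cells) foxc1a stood at 71.0 CPM, sox10 at 156 CPM and barx1, dlx2a and osr1 at 0. In 120 hpf B (20 cells) foxc1a stood at 58.7 CPM, sox10 at 117 CPM (6 UMIs), barx1 at 97.9 CPM (5 UMIs) and dlx2a and osr1 at 0. twist1a was higher in the stroma-led cluster at 96 hpf and lower at 120 hpf, at 392, 324, 209 and 151 CPM in stroma-led clusters and 129, 215, 327 and 491 CPM in the larger cartilage-led ones. At 72 hpf the stroma-led cluster (182 of 188 cells from library A) had barx1 at 353.5, dlx2a at 193.1, osr1 at 777.8 and foxc1a at 473.2 CPM. The cartilage-led cluster (189 cells, all from library B) had 314.3, 183.6, 472.6 and 360.2 CPM in the same order. The contrast was thus smaller there for barx1, dlx2a and osr1, and foxc1a did not show it. The cartilage-led cluster of 48 hpf had barx1 at 201.8, dlx2a at 140.4 and osr1 at 208.8 CPM.

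**Figure D4:**
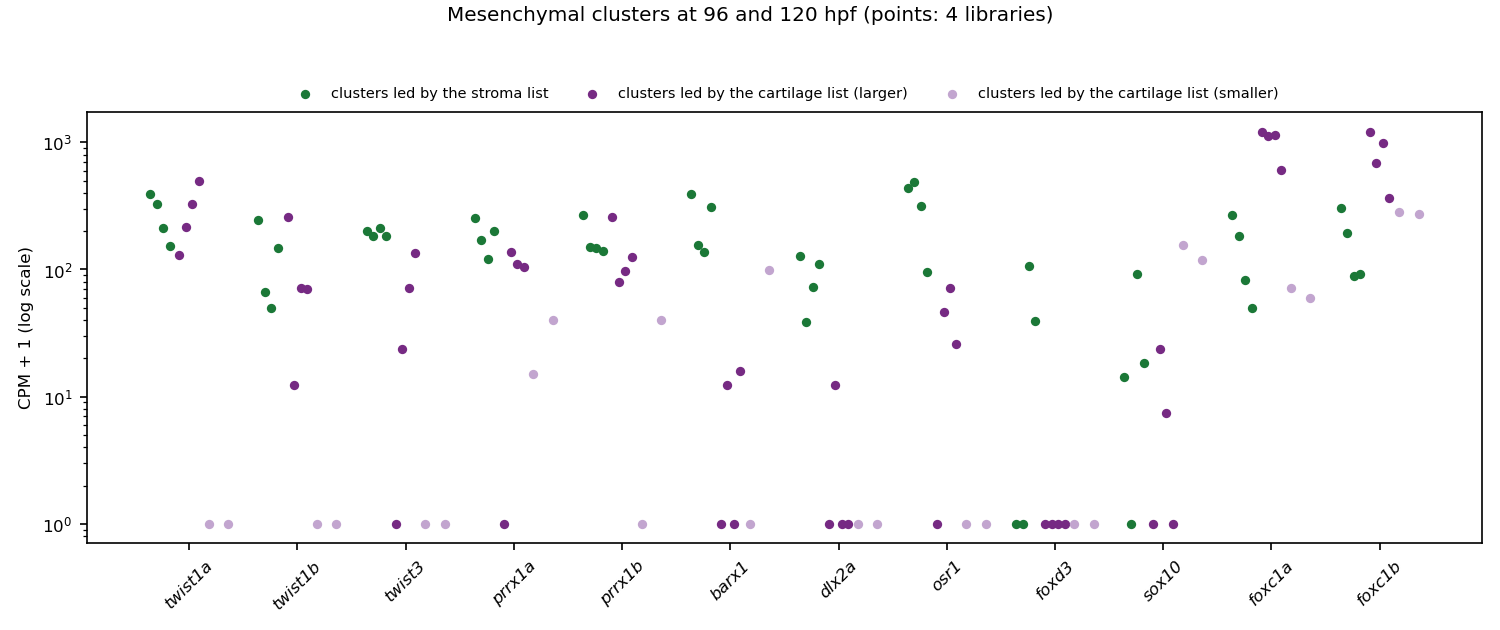
Level in CPM + 1 on a log axis (y) of each factor, foxc1a and foxc1b (x) in mesenchymal clusters of 96 and 120 hpf led by the stroma list (green) or by the cartilage list (dark purple the larger cluster of each time point, light purple the smaller), with 1 point per library, and for the small clusters 96 hpf B and 120 hpf B only. barx1, dlx2a, osr1 and twist3 are higher in the stroma-led clusters and foxc1a and foxc1b in the larger cartilage-led clusters of all 4 libraries. foxc1a is low in the small cartilage-led ones (71.0 and 58.7 CPM), and twist1a, twist1b, prrx1a and prrx1b overlap.

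barx1 and dlx2a shared cells. Among mesenchymal cells at 1000 UMIs, 32.3% of barx1 cells also had a dlx2a UMI, against 5.08% of cells without barx1 (27.2 ± 15.7 points, SD, above 0 in 8 of 8 libraries). The pair prrx1a and prrx1b had 23.6% against 13.5% (10.2 ± 5.20 points, 7 of 8 libraries), and reads that such paralogs share could have been given to either or dropped in the counting, which was not tested. barx1 and osr1 (19.0% against 15.1%, 5 of 8 libraries) and dlx2a and osr1 (16.6% against 15.5%, 4 of 5 libraries) differed by 3.93 and 1.07 points. Across the 81 clusters of all time points, which share libraries and depth, the level of log2(CPM + 10) of prrx1a correlated most with prrx1b (Pearson r = 0.95), twist1a (0.92) and mxra8b (0.91). twist1a went most closely with mxra8b, prrx1a and cldn11a (0.92 each), twist1b with vstm4a (0.92), prrx1b (0.92) and twist2 (0.91), twist3 with tnmd (0.90), prrx1a (0.89) and twist1b (0.88), and prrx1b with prrx1a (0.95), mxra8b (0.92) and fbln5 (0.92). barx1 went with gsc (0.91), lhx6 (0.87) and foxf1 (0.83), and dlx2a with dlx1a (0.81), lhx6 (0.81) and dlx6a (0.80). osr1 went with zgc:162612 (0.87), aspn (0.86) and col5a2a (0.85), of which aspn and col5a2a encode matrix proteins of connective tissue. foxd3 (cd59 0.71, myog 0.68, hsp90aa1.1 0.64) and sox10 (bmpr1ba 0.75, crabp2b 0.75, hepacama 0.73) had no partner as close.

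foxd3 and sox10 marked a small set of cells of their own. Of the 64 cells with a foxd3 UMI, 47 (73.4%) also had sox10, against 1.81% of cells without foxd3, and these 47 cells held 85.0% of all foxd3 UMIs. They came from 9 of the 10 libraries, with 8 (A) and 1 (B) cells at 48 hpf, 13 (A) and 5 (B) at 72 hpf, 2 (A) and 6 (B) at 96 hpf, 5 (A) and 6 (B) at 120 hpf, and 1 cell (A) at 144 hpf. The clusters placed 21 of them among annular ligament cells and 19 among mesenchymal cells. Most other factors were rare in them. No cell of the 47 had a twist1a, barx1, osr1 or foxc1a UMI (0 of 47, which allows a share of up to 6.38% at 3 counts, with an exact 95% limit of 7.55%), whereas 35.3% of the other cells of the same clusters and libraries had twist1a, 11.8% barx1, 12.4% osr1 and 24.8% foxc1a. prrx1a had a UMI in 2 of the 47 cells (4.26%, 95% exact interval 0.520 to 14.5%), against 32.0% of their neighbours, and prrx1b in 1 (2.13%), against 27.5%. dlx2a was the exception, with 6 of 47 cells (12.8%, interval 4.83 to 25.7%) against 13.9% of neighbours.

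Among genes picked after their values were seen, tuba8l3 was present in 45 of the 47 cells (32.6% of neighbours), fxyd1 in 33 (28.6%) and mcamb in 27 (5.37%). The picked genes krt18b, in 35 (63.6%), and cd81a, in 46 (87.7%), differed less from neighbours. fxyd1 is also on the list from which annular ligament clusters were named. Of further crest, glial and pigment genes looked up in these cells, erbb3b, a receptor of crest and glial cells, had a UMI in 7 of the 47 (14.9%, against 0.796% of all other cells), and crestin, a crest marker, in 6 (12.8%, against 0.221%). tfec, a pigment lineage factor, had a UMI in 4 (8.51%, against 0.156%) and mitfa, the regulator of the melanocyte lineage, in 1 (2.13%, against 0.0246%). pax3a had a UMI in 6 of the 47, pnp4a, an iridophore marker, in 4, plp1b and tfap2a in 1 each, and pax7a, ltk and mpz in none. Of the 220 cells with sox10 and no foxd3, 7.73% had twist1a (95% exact interval 4.57 to 12.1%), against 10.98% of their neighbours, and 16.4% had foxc1b, against 12.9%. The foxd3 levels of whole classes rest on few cells. The 10 cells with most foxd3 held 44.6% of its UMIs, against 3.91% for twist1a.

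**Figure D5:**
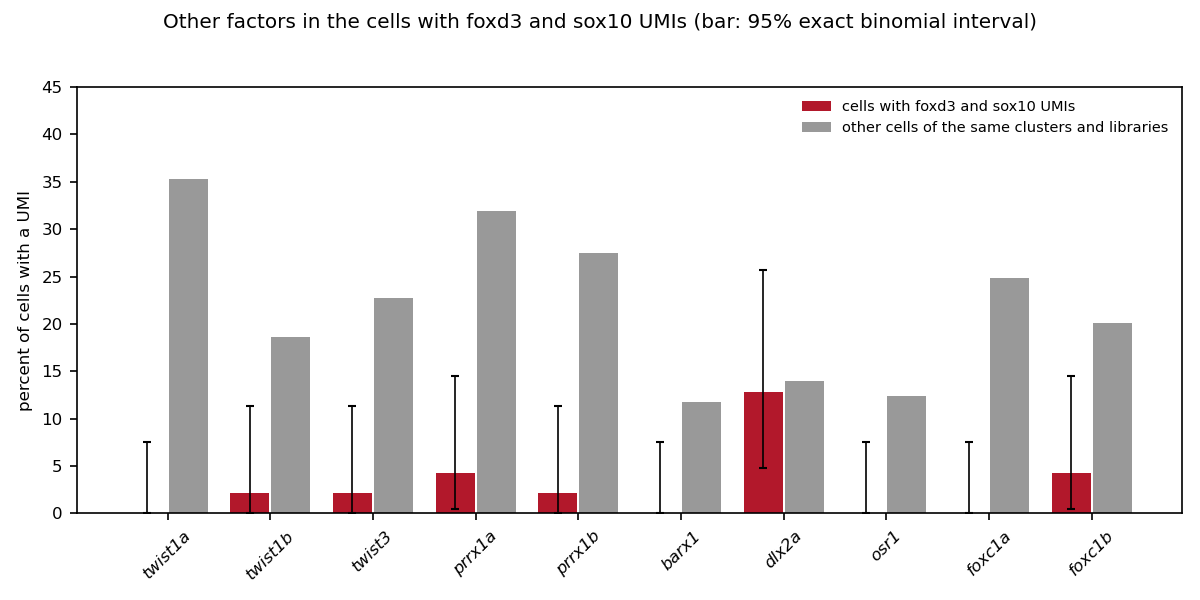
Percent of cells with a UMI (y) of 8 of the factors, foxc1a and foxc1b (x), in the 47 cells with both foxd3 and sox10 (red, with 95% exact binomial intervals) and in the other cells of the same clusters and libraries (gray). twist1a, barx1, osr1 and foxc1a are at 0 of 47 in the red group against 11.8 to 35.3% in the gray group, and dlx2a is close in both (12.8 and 13.9%).

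Outside mesenchyme and annular ligament, the factors were also found elsewhere. sox10 was present in clusters of Müller glia markers, with 199 CPM in 72 hpf A (14 of 35 cells), 41.5 CPM in 96 hpf B, 534 CPM in 120 hpf A (32 of 88 cells), 121 CPM in 120 hpf B (32 of 172) and 146 CPM in 144 hpf A (19 of 112). These exceed the highest sox10 level of mesenchymal cells, 77.5 CPM in 48 hpf A, in 4 of the 5 libraries. osr1 appeared in basal corneal epithelium (clusters of the krt5 and tp63 list) with 0 and 2.86 CPM at 48 hpf, 7.02 and 13.2 CPM at 72 hpf, 60.5 and 28.4 CPM at 96 hpf, 23.7 and 21.4 CPM at 120 hpf, and 29.96 CPM in 144 hpf A. Every library from 96 hpf on was above every earlier one, apart from the 20 cells of 144 hpf B (6.39 CPM). twist1a in mural cells, a class found at 96 and 120 hpf only, reached 515 and 630.4 CPM at 96 hpf and 300.1 and 583 CPM at 120 hpf. twist1a in the 33 vascular endothelial cells of 96 hpf had levels of 56.6 CPM (4 UMIs, library A) and 339 CPM (10 UMIs, library B). Epithelial cells held 22.8% of all dlx2a UMIs (1.28 to 20.5 CPM over 10 libraries, median 10.2) and 16.2% of all barx1 UMIs (0 to 31.8 CPM, median 7.23). A level of dlx2a in retinal or neural cells of 72 hpf A rested on 1 cell with 33 UMIs, the largest dlx2a count of any cell.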

How the data were processed

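The deposited matrices hold whole-number counts of UMIs per gene and cell. Per the submitters' processing notes the authors used Cell Ranger 6.0 and GRCz11, and the study describes an aggregation with normalization to mapped reads. The 5 matrices of the time points were used as deposited, and the joined matrix as an alternative. The labels name v2 chemistry for every sample, the table of cells V2 or V3 per library and the study V3. Libraries A and B come from the table of cells, and the study speaks of biological replicates without naming them.

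Cells were clustered per time point (scanpy 1.11.5, leidenalg 0.10.2, 100 principal components, 20 neighbours, resolution 1), leaving out the 10 members, foxc1a and foxc1b. A cluster was named by at least 3 markers of a list at 4-fold the median of the other clusters of its time point, with 10 CPM added to both. Each such marker was present in at least 10% of its cells (152 of 162 markers matched, 21 lists). Rules on the share of the list, on leading genes and on depth also applied, so names are rebuilt and not the authors'. Doublets were kept, and 157 called ones (1.28%) left out as an alternative, with the remaining cells clustered and named again. UMIs were summed per library and class of at least 10 cells and tested over all genes with edgeR 4.0.16 (TMM, filterByExpr, quasi-likelihood F test, Benjamini-Hochberg at 0.05), with time per 24 h or library as a block, and with DESeq2 1.42.0 as the other tool. Library sizes ran from 788648 to 15621511 UMIs. For co-detection each cell was thinned to 1000 UMIs (2661 of 12234 cells were too shallow), and libraries with at least 5 cells of a factor were compared by exact two-sided sign-flip tests (scipy 1.17.1). The edgeR comparisons were also run on simulated counts, with 200 changed genes each. The change was log2 1 per 24 h for trends and trend differences and log2 2 for comparisons of classes. These runs recovered 82.5% of the changed genes for the trend in annular ligament cells and 68.5% for the difference of trends. For the other comparisons 95% or more were recovered. They changed only genes with ample counts at a common dispersion, so they do not cover genes as sparse as foxd3. Nor do they cover slopes smaller than the simulated one, such as those of twist3, dlx2a and barx1 in mesenchymal cells.

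The text names all 10 members, foxc1a and foxc1b, the 5 related factors with the largest called change in each comparison (48 of 51 matched) and the 3 genes most correlated with each member. Members and lists were chosen with earlier results of these data known. The codes in the table of cells are unexplained and were used as an alternative block. eGFP had 0 UMIs. Gene sequences and coordinates were not used here.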

Additional observations from a re-analysis of the deposited data

Results flagged for a closer look

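In the co-detection differences, 10 groups of libraries were tested for a library far from the rest, of which chance alone marks about 1 in 20, and 2 were marked, both by 48 hpf B. For twist1a that library had a difference of 64.3 percentage points, from 6 of 9 twist1a cells (66.7%) with a foxc1a or foxc1b UMI. For sox10 it had a difference of 57.1 points, from 3 of 5 cells. Without 48 hpf B the twist1a difference was 21.9 points and kept its call (exact permutation test, adjusted p = 0.0156), and the sox10 difference was −3.23 points.

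The slope per 24 h differed between annular ligament and mesenchymal cells, annular ligament minus mesenchymal, by −5.35 on the log2 scale for barx1, −2.65 for dlx2a, −1.44 for osr1 and −4.41 for foxd3, each past the edgeR test of the difference itself over 7 libraries (adjusted p = 6.03e-05, 0.0116, 0.0334 and 0.0357).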

How the results depend on the processing

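Comparisons of classes were paired within library. Across time points libraries could not be paired as replicates, because the letters A and B name libraries in the table of cells and carry no shared replicate number. Libraries that share a code were compared through the code as a block instead. Alternatives were tallied for members with an unadjusted edgeR p under 0.2 in the main fit, and for all 10 members in co-detection. Members with a larger p, fits with time as a factor and 11 settings without a value are not in the tally. It thus does not cover the members with the weakest fits. Of 761 values recomputed under alternatives, 657 kept direction and side of the threshold, 64 lost the call, 18 gained one and 22 changed sign. Of these sign changes, 0 were among members called by edgeR. Members called for co-detection over all sorted cells did change sign within single classes. These were twist1b, twist3, prrx1a, prrx1b and osr1 in mesenchymal cells only. In annular ligament cells only, they were twist1a, twist1b, twist3, prrx1a and prrx1b. Values within annular ligament cells, their trends and the trend differences were added after seeing the data.

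In all sorted cells the count of members with a called trend (1) was 4 under DESeq2 and 0 with plain totals in place of TMM, without the V2 libraries, with the code as a block or with time as a factor (0 to 1 on leaving out a library). The slope of dlx2a with the code as a block was −0.68 (edgeR adjusted p = 0.637). Over all genes the 93 calls (60 higher, 33 lower) became 717 under DESeq2, 2 with plain totals, 3 without the V2 libraries, 8 with time as a factor and 0 with the code as a block, where 1083 genes had an unadjusted p under 0.05. In mesenchymal cells the count (0) was 2 under DESeq2 and with time as a factor and 1 at resolution 2 (0 to 2 on leaving out a library). The 685 genes (319 higher, 366 lower) became 907 under DESeq2, 584 with time as a factor and 625 at resolution 2. They were 758 with plain totals (158 higher, 600 lower), 207 without the V2 libraries and 3 with the code as a block. Against all other cells 8 to 9 members were called on leaving out a library, and plain totals gave 2070 genes higher and 1987 lower. Against annular ligament cells the count (4) was 2 at resolution 2 and 2 to 4 on leaving out a library. In annular ligament cells the trend count (7) was 4 without the V2 libraries and 2 to 6 on leaving out a library, and plain totals gave 122 genes higher and 2348 lower, with a prrx1a slope of −0.0175. For the trend difference the count (4) was 2 under DESeq2, 7 with no filter and 1 to 6 on leaving out a library. The prrx1b difference there was −0.0584 with plain totals and −0.0332 to 0.42 on leaving out a library, and plain totals gave 268 genes (20 higher, 248 lower) against 126.

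For co-detection the count (6) was 1 in mesenchymal cells only, 0 in annular ligament cells only, 4 with foxc1b alone, 7 with cells thinned to 500 UMIs (sox10 below 0), 9 without thinning (foxd3 below 0) and 5 to 6 on leaving out a library. In mesenchymal cells only, the differences in percentage points were −1.39 for twist1b, −21.8 for twist3, −2.04 for prrx1a, −18.2 for prrx1b, −15.5 for barx1, −12.2 for dlx2a, −1.18 for osr1 and −18.7 for sox10. In annular ligament cells only, they were −1.17 for twist1a, −6.12 for twist1b, −0.676 for twist3, −2.67 for prrx1a, −3.24 for prrx1b, −24.4 for dlx2a and −21.4 for sox10. With foxc1a alone dlx2a was at −1.84 and sox10 at −4.60, and sox10 was at −4.16 with cells thinned to 500 UMIs and between −3.23 and 7.06 on leaving out a library. The cause of these changes was not tested. Depth limits foxd3 most, with 307 UMIs in all.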
